A study of Mus musculus with 12 samples.

Results

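Wnt signalling genes were followed across 12 RNA sequencing libraries of injured mouse sciatic nerve. They are the genes whose symbols name a Wnt ligand, a Frizzled receptor, an SFRP or DKK antagonist or an R-spondin, together with Wif1, Lrp5, Lrp6, Nkd1, Nkd2, Axin2, Lef1, Tcf7, Notum, Znrf3 and Rnf43. This choice by symbol gave 52 of the 30452 genes listed, of which 42 had enough counts to be tested. Nf1 KO mice carried P0-CreERT2, a tamoxifen-inducible recombinase, with YFPfl/fl and Nf1fl/fl. CTL mice carried the same recombinase and YFPfl/fl with Nf1+/+. Nf1 encodes neurofibromin, a brake on RAS, and tamoxifen removes it in myelinating Schwann cells, so the other cells of the nerve keep the gene. Each sample pooled 6 fragments of 0.5 mm from several mice at day 14 after injury, from the bridge (new tissue that joins the nerve ends) or from the distal stump (the nerve beyond it). The 4 groups, Nf1 KO bridge, CTL bridge, Nf1 KO distal stump and CTL distal stump, held 3 samples each, and no age of the mice is stated in the sources used here.

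Wnt proteins are secreted lipid-modified ligands that bind Frizzled receptors together with the co-receptors LRP5 and LRP6. In the canonical branch this stops the destruction of β-catenin, which then acts with TCF and LEF factors in the nucleus. R-spondins keep Frizzled receptors at the surface by removing the ligases ZNRF3 and RNF43, while SFRP, DKK, WIF1 and NOTUM proteins restrain the ligand or its receptors outside the cell. Axin2, Nkd1 and Nkd2 are genes that the pathway commonly switches on and whose products damp it. In nerve, Wnt signals are known to take part in Schwann cell development and myelin gene expression.

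Library totals ran from 18821445 to 38981819 estimated counts. Values below are CPM, counts scaled to the library's total after TMM normalization, and a floor of 3 counts in a library amounts to 0.077 to 0.159 CPM of its total. Fold changes are on the log2 scale, and a gene is called where the Benjamini-Hochberg adjusted p of edgeR's quasi-likelihood test over 19189 genes was under 0.05. Nf1 itself had 42.4, 54.7 and 46.4 CPM in Nf1 KO bridge, against 62.5, 67.4 and 60.1 CPM in CTL bridge, and 42.5, 43.1 and 42.3 CPM in Nf1 KO distal stump, against 69.7, 57.0 and 67.3 CPM in CTL distal stump. Its fold change was -0.40 in the bridge (adjusted p = 0.0218) and -0.60 in the distal stump (adjusted p = 0.0056), and the groups did not overlap in either region. Skeletal muscle markers stood apart in CTL bridge libraries 1 and 3: the 6 markers summed to 1497, 415 and 948 CPM in Nf1 KO bridge, against 8046, 1053 and 7088 CPM in CTL bridge. Nf1 KO distal stump 1 stood apart as well, with sums of 2590, 13.7 and 89.1 CPM in Nf1 KO distal stump, against 19.6 to 277 CPM in CTL distal stump. Without CTL bridge 1 and 3 only 1 CTL bridge library is left, so calls lost in that fit cannot be assigned to muscle. In the distal stump 8 Wnt genes were called for genotype without Nf1 KO distal stump 1, in place of 14. Leaving out any other single distal stump library lowered that count as well, mostly by more. The part of muscle in these losses was not tested. In Nf1 KO distal stump 1, a single non-coding gene, Gm15662, made up 24.5% of all counts. In whole tissue, fewer cells of a type and less RNA per cell cannot be told apart.

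Among the genes called in both regions, 7 kept the call under every alternative analysis in at least 1 region, namely Wnt16, Nkd2, Lrp5, Nkd1, Rspo1, Fzd7 and Fzd3. RefSeq promoter windows on GRCm38.p6 were at hand for 5 of them, and in 3 the 50 bases after the RefSeq start were found unchanged in a GENCODE M21 transcript of the gene. The 250 bases before the start of these 3 genes are shown, because their transcripts changed with genotype in both regions, upward for Wnt16 and Nkd2 and downward for Rspo1. They lie at chr6:22287977-22288226 on the plus strand for Wnt16, at chr13:73847632-73847881 on the minus strand for Nkd2 and at chr4:124986180-124986429 on the plus strand for Rspo1. Capitals mark CG dinucleotides, of which there are 9, 14 and 22 in that order, beside a median of 6 over 32851 windows.
Wnt16: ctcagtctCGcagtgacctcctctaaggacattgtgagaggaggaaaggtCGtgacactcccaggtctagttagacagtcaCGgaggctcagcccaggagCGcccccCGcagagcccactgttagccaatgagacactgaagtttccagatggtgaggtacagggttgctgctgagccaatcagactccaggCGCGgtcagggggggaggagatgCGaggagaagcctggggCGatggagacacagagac
Nkd2: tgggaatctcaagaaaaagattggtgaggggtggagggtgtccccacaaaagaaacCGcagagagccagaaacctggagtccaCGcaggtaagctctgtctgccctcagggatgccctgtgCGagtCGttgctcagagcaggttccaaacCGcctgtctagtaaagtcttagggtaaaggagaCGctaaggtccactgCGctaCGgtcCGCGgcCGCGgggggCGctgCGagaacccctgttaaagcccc
Rspo1: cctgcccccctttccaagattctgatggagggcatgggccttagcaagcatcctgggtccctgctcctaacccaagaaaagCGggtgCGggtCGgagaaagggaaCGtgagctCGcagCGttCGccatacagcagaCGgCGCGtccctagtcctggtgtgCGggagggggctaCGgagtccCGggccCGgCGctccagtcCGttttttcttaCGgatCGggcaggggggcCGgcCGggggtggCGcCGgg
The core TCAAAG bound by TCF and LEF factors, searched on both strands over 300 bases that include 50 after the start, was in none of the 3 windows. It was in 5 of 42 windows of 34 Wnt genes, those of Dkk1, Fzd1, Lef1, Wnt11 and Wnt5b, against 16.0% of all windows. The GC box GGGCGG, on either strand, was in 29 of the 42 windows, against 35.7% of all windows, and in none of the 3 shown.

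In the bridge, loss of Nf1 went with more mRNA for the intracellular inhibitor Nkd2, the co-receptor Lrp5 and the ligands Wnt16 and Wnt9a, and with less for the R-spondin Rspo1, the ligands Wnt10b and Wnt6, the inhibitors Nkd1 and Axin2, and the secreted antagonists Sfrp5, Sfrp2 and Dkk2. Of the 42 genes tested, 15 (35.7%) were called, 5 higher and 10 lower in Nf1 KO, against 14.6% of all genes, 7.81% higher and 6.76% lower. Their median log2 fold change was -0.20, against 0.00 over all genes. The libraries of the 2 genotypes did not overlap for 20 of the 42, against 34.4% of all genes. In the distal stump 14 (33.3%) were called, 3 higher and 11 lower, against 8.14% of all genes, 4.45% higher and 3.69% lower, with a median of -0.25 against 0.00. There the libraries did not overlap for 18, against 27.1%. In all, 11 genes were called in both regions, each in the same direction, 4 only in the bridge (Axin2, Fzd1, Sfrp5 and Wnt9a) and 3 only in the distal stump (Fzd4, Sfrp4 and Wnt2b).

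**Figure D1:**
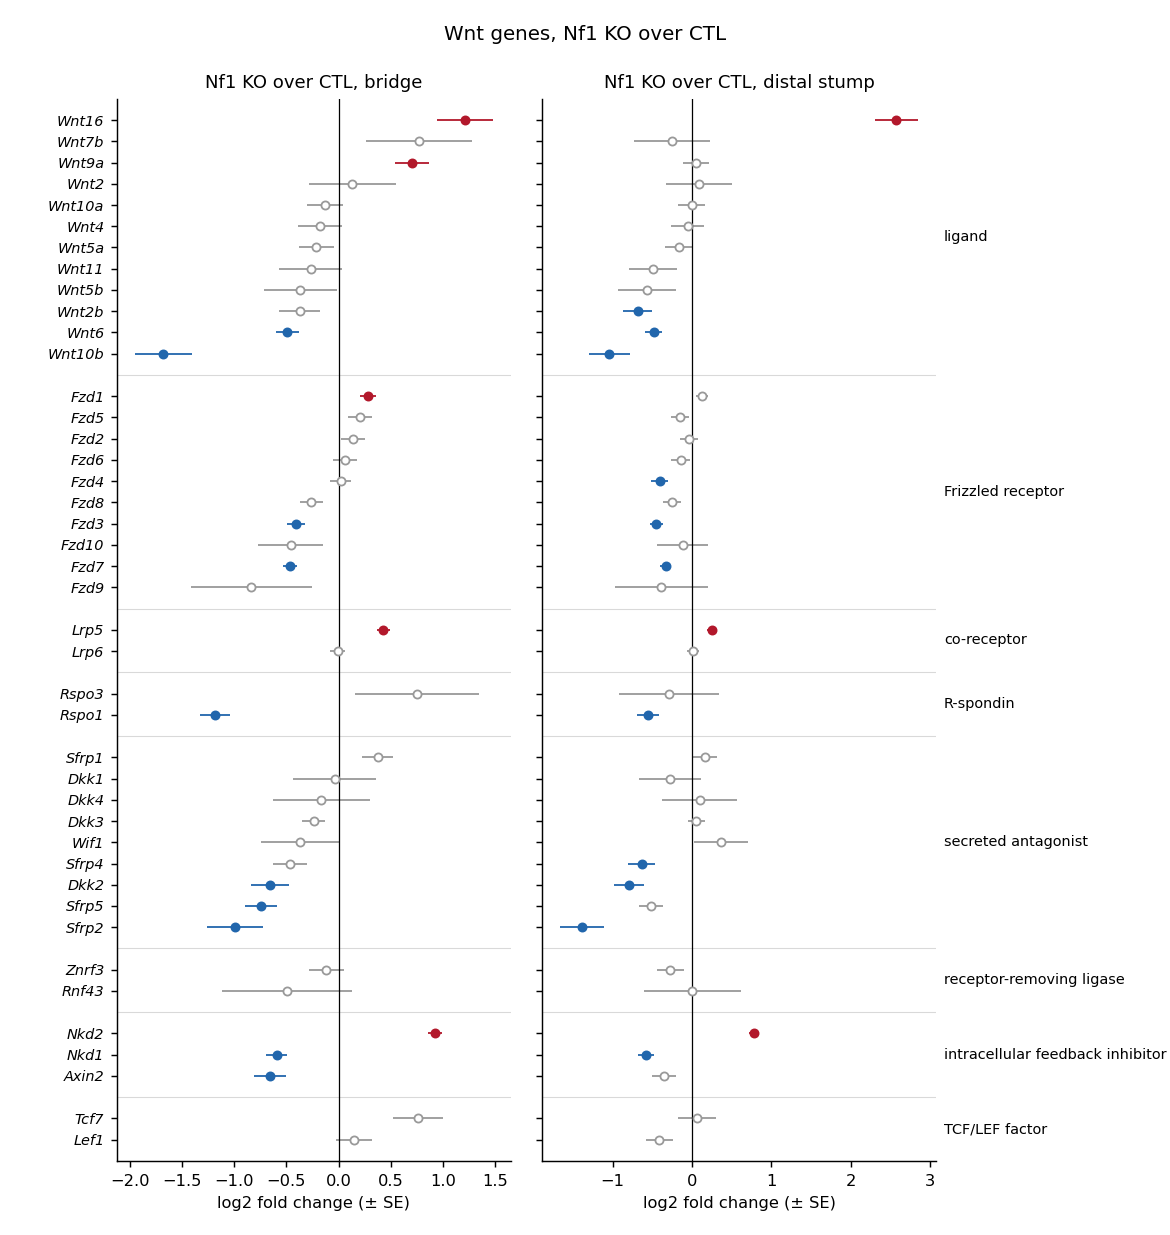
Log2 fold change (± SE) of the 42 tested Wnt genes, Nf1 KO over CTL, in the bridge (left) and the distal stump (right), grouped by role; filled points passed the adjusted p of 0.05 and open points did not. Nkd2, Lrp5 and Wnt16 lie to the right of 0 in both panels, and every called secreted antagonist lies to the left.

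Markers of other cell types moved with genotype. The 6 myelinating Schwann cell markers were all lower in Nf1 KO in both regions, with sums of 6942 to 8990 CPM in Nf1 KO bridge against 11496 to 15374 CPM in CTL bridge, and 5524 to 7246 CPM in Nf1 KO distal stump against 9192 to 10694 CPM in CTL distal stump. Of 6 perineurial markers, 5 were lower in the bridge (522 to 574 CPM in Nf1 KO, 675 to 735 CPM in CTL) and 4 in the distal stump (436 to 482 CPM in Nf1 KO, 565 to 619 CPM in CTL). Adipocyte markers were lower in the bridge for 4 of 5 (315 to 649 CPM in Nf1 KO, 754 to 1014 CPM in CTL) and for 0 of 5 in the distal stump (860 to 1137 CPM in Nf1 KO, 834 to 1318 CPM in CTL). Endothelial markers were lower for 1 of 5 in the bridge (204 to 217 CPM in Nf1 KO, 243 to 267 CPM in CTL) and for 3 of 5 in the distal stump (140 to 164 CPM in Nf1 KO, 198 to 227 CPM in CTL). Schwann lineage markers were lower for 1 of 4 in the bridge (375 to 436 CPM in Nf1 KO, 498 to 507 CPM in CTL) and for 0 of 4 in the distal stump (526 to 648 CPM in Nf1 KO, 630 to 683 CPM in CTL). Of 5 fibroblast markers, 1 was higher and 1 lower in the bridge (7207 to 7322 CPM in Nf1 KO, 6898 to 7188 CPM in CTL), and 2 were higher in the distal stump (5597 to 5733 CPM in Nf1 KO, 4874 to 5134 CPM in CTL). The summed markers of macrophages, mural cells and T cells overlapped between genotypes in both regions, and of them 1 of 5 macrophage markers was called, higher in Nf1 KO distal stump. Neutrophil markers summed to 74.2 to 1221 CPM in Nf1 KO bridge and 63.2 to 213 CPM in CTL bridge. They summed to 220 to 559 CPM in Nf1 KO distal stump and 151 to 253 CPM in CTL distal stump. The highest sum in each region was that of Nf1 KO library 1, and 0 of 5 markers were called. None of these lists had a marker at 0 throughout, and their part in the Wnt gene results was not tested.

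The 4 Y-linked genes Ddx3y, Uty, Kdm5d and Eif2s3y, whose level in a pool follows its share of males, had lower fitted values in Nf1 KO in both regions, and 0 of 4 were called. Their sums were 41.2 to 147 CPM in Nf1 KO bridge against 102 to 216 CPM in CTL bridge. They were 39.8 to 106 CPM in Nf1 KO distal stump against 116 to 197 CPM in CTL distal stump, where the genotypes did not overlap. With their mean level as a covariate, 6 of the 14 distal stump calls remained. Those of Dkk2, Fzd4, Lrp5, Rspo1, Sfrp2, Sfrp4, Wnt10b and Wnt2b were lost (adjusted p from 0.0512 to 0.162). In the bridge Dkk2, Fzd1 and Sfrp2 were lost (adjusted p from 0.0733 to 0.0968).

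Wnt6 was the most abundant ligand per length of exon in all 4 groups, at 11.0 ± 0.699 CPM per kb in Nf1 KO bridge, 15.5 ± 0.722 in CTL bridge, 9.13 ± 1.62 in Nf1 KO distal stump and 12.7 ± 0.762 in CTL distal stump (SD, n = 3). It made up 44.7% ± 3.58 of the summed ligand level per kb in Nf1 KO bridge and 54.2% ± 3.06 in CTL bridge. Wnt9a followed in Nf1 KO bridge with 19.6% ± 0.560, against 10.3% ± 0.748 in CTL bridge. In the distal stump Wnt2b stood second, with 13.0% ± 0.454 in Nf1 KO and 16.9% ± 0.725 in CTL, and Wnt16 made up 9.91% ± 1.61 in Nf1 KO and 1.32% ± 0.352 in CTL. In Nf1 KO distal stump, Wnt9a (2.39 ± 0.425 CPM per kb) and Wnt16 (2.29 ± 0.362) differed by less than their SD.

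**Figure D2:**
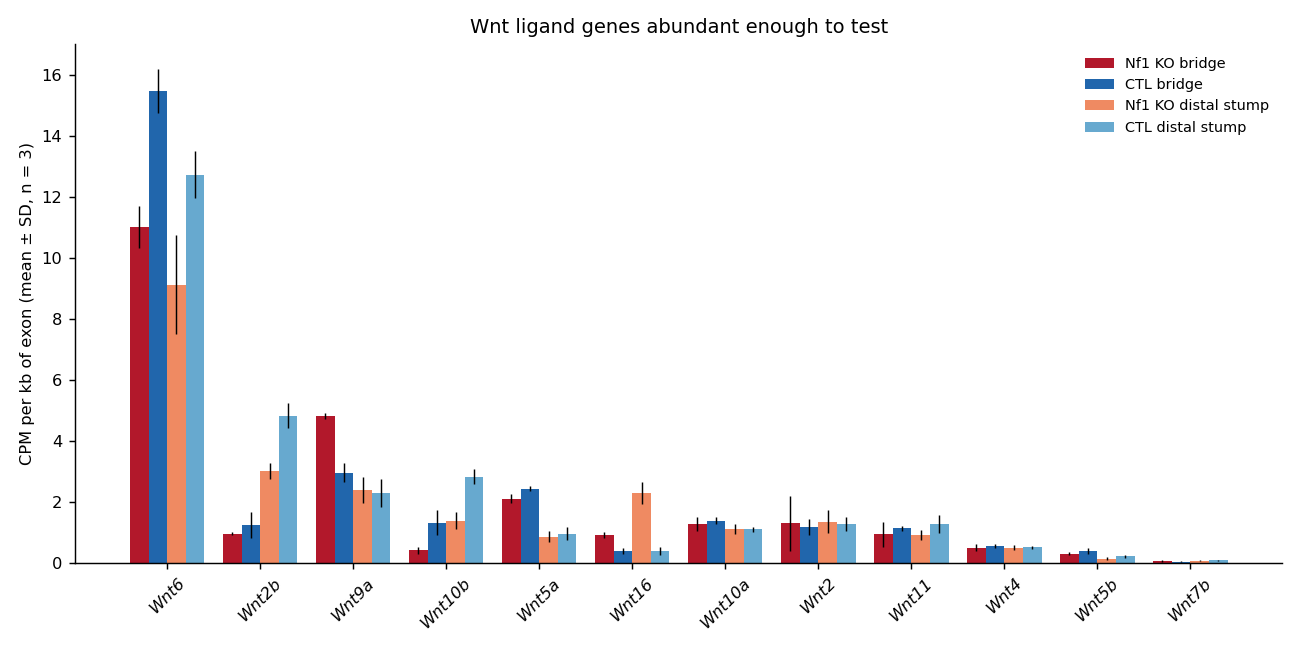
Level of the 12 tested Wnt ligand genes in CPM per kb of exon (mean and SD of 3 libraries), ordered by their highest group mean. Wnt6 is the tallest in every group, Wnt16 stands out only in Nf1 KO distal stump at 2.29, and Wnt5a is higher in both bridge groups than in both distal stump groups.

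Wnt16, a ligand best known from bone, was higher in Nf1 KO in both regions. It had 8.41, 11.6 and 9.97 CPM in Nf1 KO distal stump, against 1.03, 1.96 and 2.03 CPM in CTL distal stump. The lowest Nf1 KO library was above the highest CTL library by a wide margin, and the log2 fold change was 2.57 (SE 0.27, adjusted p = 0.000538). In the bridge it had 3.92, 4.48 and 3.61 CPM in Nf1 KO bridge, against 1.33, 2.23 and 1.59 CPM in CTL bridge, again without overlap, a log2 fold change of 1.21 (SE 0.27, adjusted p = 0.0138). That call was lost without CTL bridge 1 (adjusted p = 0.0544), and without CTL bridge 1 and 3 the value was 0.85 (adjusted p = 0.262).

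Wnt9a, a ligand of joint and heart valve development, had 15.8, 15.9 and 16.4 CPM in Nf1 KO bridge, against 8.70, 10.7 and 10.1 CPM in CTL bridge. All Nf1 KO bridge libraries were above all CTL bridge libraries, with a log2 fold change of 0.70 (SE 0.16, adjusted p = 0.0164), and the call was lost without CTL bridge 1 (adjusted p = 0.0627) and without CTL bridge 1 and 3 (0.58, adjusted p = 0.237). In the distal stump the genotypes overlapped, at 8.24, 6.40 and 9.18 CPM in Nf1 KO distal stump, against 6.42, 7.07 and 9.41 CPM in CTL distal stump, and the log2 fold change was 0.05 (SE 0.16, adjusted p = 0.892).

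Wnt10b, a canonical ligand that in mice restrains fat cell formation, was lower in Nf1 KO in both regions. It had 0.916, 1.54 and 1.70 CPM in Nf1 KO bridge, against 4.09, 3.31 and 6.00 CPM in CTL bridge, so that all 3 Nf1 KO libraries lay below the CTL ones, and the log2 fold change was -1.68 (SE 0.27, adjusted p = 0.00341). Distal stump values were 4.44, 5.71 and 3.89 CPM in Nf1 KO distal stump, against 9.16, 9.16 and 10.6 CPM in CTL distal stump, also without overlap, a log2 fold change of -1.04 (SE 0.26, adjusted p = 0.0347). The distal stump call was lost without CTL bridge 1 or without any 1 of the 6 distal stump libraries (adjusted p up to 0.122). Without CTL bridge 1 and 3 the bridge value was -1.24 (adjusted p = 0.0729). The adipocyte markers given above fell beside Wnt10b in the bridge and were not called in the distal stump, where Wnt10b fell too. A link between them was not tested.

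The most abundant ligand, Wnt6, had 24.5, 25.5 and 22.5 CPM in Nf1 KO bridge, against 33.8, 35.6 and 32.4 CPM in CTL bridge. It fell by similar amounts in both regions, with a log2 fold change of -0.49 (SE 0.11, adjusted p = 0.0134) in the bridge. The distal stump values were 17.3, 18.7 and 24.0 CPM in Nf1 KO distal stump, against 26.0, 28.6 and 29.2 CPM in CTL distal stump, without overlap, and the log2 fold change was -0.48 (SE 0.11, adjusted p = 0.0227). The bridge call was lost without Nf1 KO bridge 3 (adjusted p = 0.0521) and the distal stump call without Nf1 KO distal stump 1 or 2 or CTL distal stump 2 or 3 (adjusted p up to 0.0844). Without CTL bridge 1 and 3 the adjusted p was 0.105 in the bridge and 0.0501 in the distal stump.

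Wnt2b was lower in Nf1 KO distal stump, with 12.0, 12.0 and 13.9 CPM in Nf1 KO distal stump, against 18.3, 21.7 and 20.9 CPM in CTL distal stump. The groups did not overlap and the log2 fold change was -0.68 (SE 0.19, adjusted p = 0.0496), a call lost without any 1 of the Nf1 KO bridge or distal stump libraries or of the CTL distal stump libraries (adjusted p up to 0.14). In the bridge it had 4.29, 4.00 and 3.82 CPM in Nf1 KO bridge, against 4.20, 4.13 and 7.26 CPM in CTL bridge, which overlapped, and a log2 fold change of -0.37 (SE 0.20, adjusted p = 0.239). The other tested ligands, Wnt2, Wnt4, Wnt5a, Wnt5b, Wnt7b, Wnt10a and Wnt11, were not called for genotype in either region. Their log2 fold changes lay between -0.37 (Wnt5b) and 0.77 (Wnt7b) in the bridge and between -0.57 (Wnt5b) and 0.09 (Wnt2) in the distal stump.

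**Figure D3:**
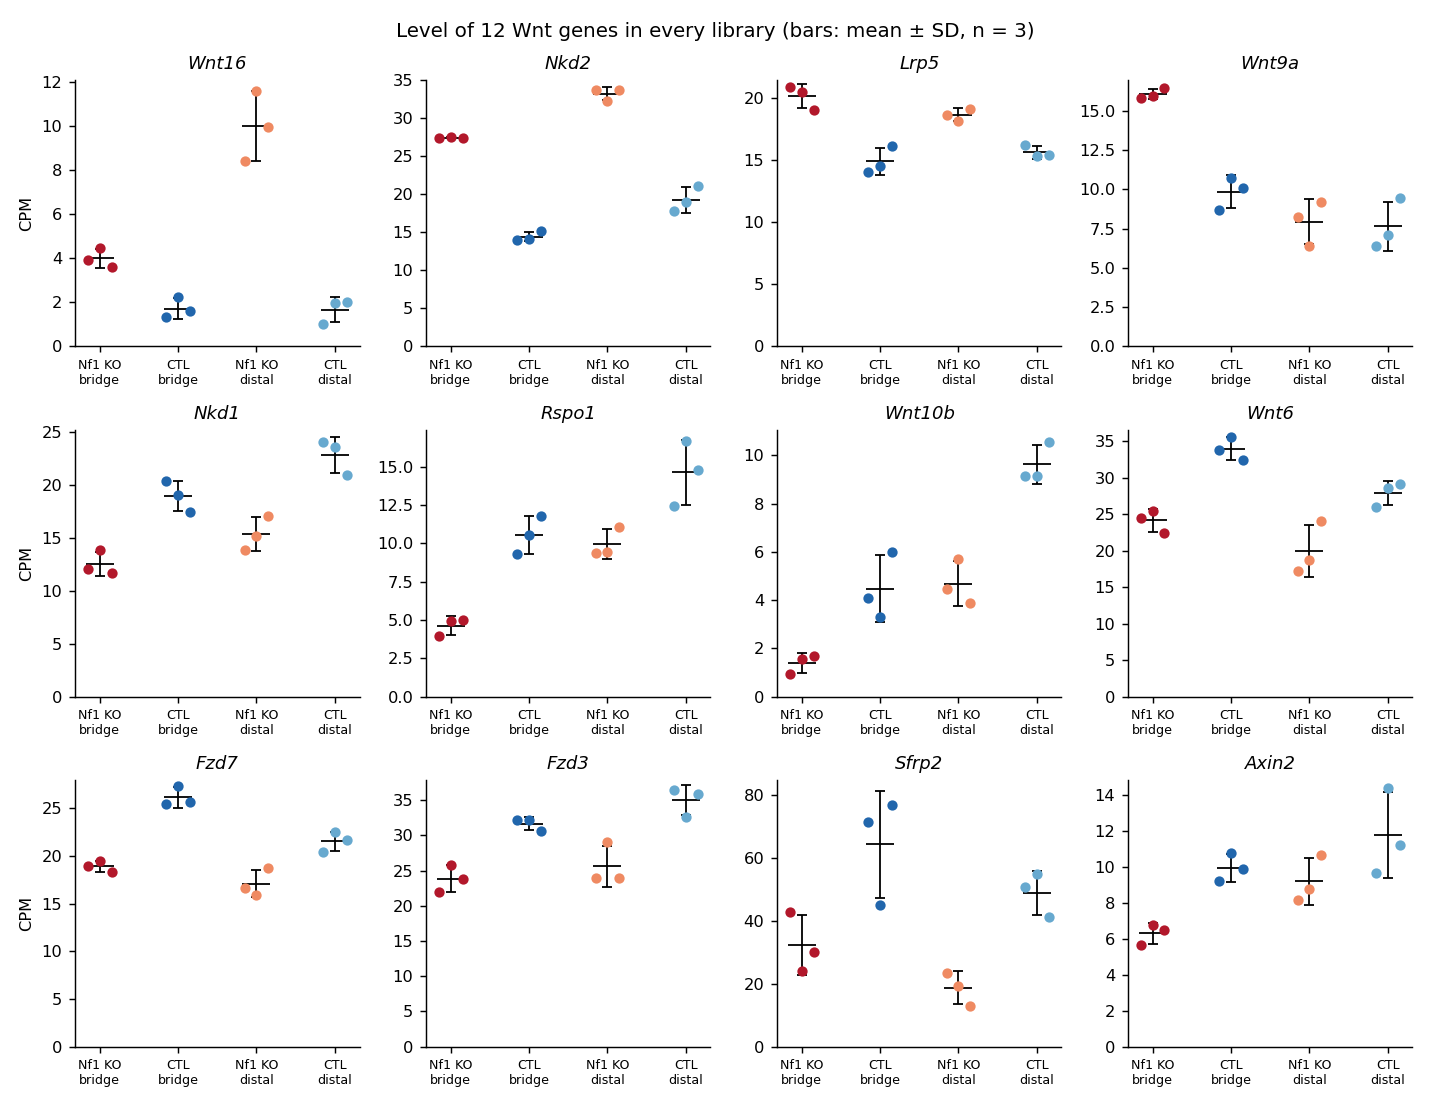
CPM of 12 Wnt genes in every library, with the mean and SD of 3 libraries, for Nf1 KO bridge, CTL bridge, Nf1 KO distal stump and CTL distal stump. Wnt16, Nkd2 and Lrp5 are higher in Nf1 KO than in CTL in both regions, and Nkd1, Rspo1, Wnt10b, Wnt6, Fzd7, Fzd3 and Sfrp2 are lower without overlap in both.

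Among the 10 Frizzled receptors, Fzd7 and Fzd3 fell in both regions, Fzd4 fell in the distal stump and Fzd1 rose in the bridge. Fzd7, a receptor of canonical Wnt ligands, had 18.9, 19.5 and 18.3 CPM in Nf1 KO bridge, against 25.4, 27.4 and 25.6 CPM in CTL bridge. No Nf1 KO bridge library came near the CTL range, with a log2 fold change of -0.47 (SE 0.07, adjusted p = 0.00208). Distal stump values were 16.7, 15.9 and 18.7 CPM in Nf1 KO distal stump, against 20.4, 22.5 and 21.7 CPM in CTL distal stump and the log2 fold change -0.33 (SE 0.07, adjusted p = 0.0152), a call lost without Nf1 KO distal stump 2 or CTL distal stump 2 (adjusted p up to 0.0618).

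Fzd3, which in mice guides growing axons through planar polarity signalling, had 21.9, 25.8 and 23.8 CPM in Nf1 KO bridge, against 32.1, 32.2 and 30.6 CPM in CTL bridge. All Nf1 KO libraries were lower, and the log2 fold change was -0.41 (SE 0.09, adjusted p = 0.0119), not called without Nf1 KO bridge 1 (adjusted p = 0.0516) or without CTL bridge 1 and 3 (adjusted p = 0.125). The gene also had 24.0, 29.0 and 23.9 CPM in Nf1 KO distal stump, against 36.4, 32.5 and 35.9 CPM in CTL distal stump, again without overlap, with a log2 fold change of -0.45 (SE 0.09, adjusted p = 0.0113).

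Fzd4, the receptor that also binds Norrin in retinal vessels, had 14.5, 12.8 and 12.6 CPM in Nf1 KO distal stump, against 16.2, 16.5 and 20.2 CPM in CTL distal stump. All Nf1 KO distal stump libraries were lower, and the log2 fold change was -0.41 (SE 0.10, adjusted p = 0.0357). The bridge values overlapped, at 25.1, 23.6 and 26.5 CPM in Nf1 KO bridge, against 24.9, 22.4 and 26.9 CPM in CTL bridge, with a log2 fold change of 0.02 (SE 0.10, adjusted p = 0.937). The distal stump call was lost without any 1 of Nf1 KO bridge 1, CTL bridge 1, Nf1 KO distal stump 2 or 3 or CTL distal stump 2 or 3 (adjusted p up to 0.12) and without CTL bridge 1 and 3 (adjusted p = 0.0521). Of the endothelial markers given above, 3 of 5 were lower in Nf1 KO distal stump too. In the bridge, where Fzd4 was not called, 1 of 5 was lower and their sums did not overlap either (204 to 217 CPM in Nf1 KO, 243 to 267 CPM in CTL). A link between the markers and Fzd4 was not tested.

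Fzd1 had 72.8, 63.5 and 59.3 CPM in Nf1 KO bridge, against 56.3, 52.2 and 52.2 CPM in CTL bridge, higher in every Nf1 KO bridge library, with a log2 fold change of 0.28 (SE 0.08, adjusted p = 0.0335). The call was lost without Nf1 KO bridge 1 or 2 or any 1 CTL bridge library (adjusted p up to 0.113), and without CTL bridge 1 and 3 the adjusted p was 0.182. Fzd1 had 47.6, 53.8 and 51.9 CPM in Nf1 KO distal stump, against 45.6, 47.9 and 47.2 CPM in CTL distal stump, which overlapped, a log2 fold change of 0.12 (SE 0.08, adjusted p = 0.384). The abundant receptor Fzd2 was not called, with 70.7 ± 4.29 CPM in Nf1 KO bridge and 64.1 ± 5.86 CPM in CTL bridge, and 58.4 ± 7.64 CPM in Nf1 KO distal stump and 59.7 ± 7.51 CPM in CTL distal stump (SD, n = 3). Fzd8 was also not called, with 16.5 ± 1.47 CPM in Nf1 KO bridge and 19.8 ± 1.69 CPM in CTL bridge, and 20.3 ± 2.83 CPM in Nf1 KO distal stump and 24.1 ± 1.46 CPM in CTL distal stump. Fzd5, Fzd6, Fzd9 and Fzd10 were not called for genotype either.

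The co-receptor Lrp5 rose in both regions, whereas its relative Lrp6 was not called in either. Lrp5 had 20.9, 20.5 and 19.1 CPM in Nf1 KO bridge, against 14.1, 14.5 and 16.2 CPM in CTL bridge, a log2 fold change of 0.43 (SE 0.07, adjusted p = 0.00254). It had 18.7, 18.2 and 19.2 CPM in Nf1 KO distal stump, against 16.2, 15.3 and 15.4 CPM in CTL distal stump, and the log2 fold change was 0.25 (SE 0.07, adjusted p = 0.0404). The libraries did not overlap in either region, but the distal stump call was lost without any 1 of Nf1 KO bridge 1 or 2, CTL bridge 2 or the 6 distal stump libraries (adjusted p up to 0.131). Lrp6 averaged 104 ± 1.98 CPM in Nf1 KO bridge and 105 ± 9.68 CPM in CTL bridge, and 96.8 ± 7.57 CPM in Nf1 KO distal stump and 95.7 ± 1.45 CPM in CTL distal stump (SD, n = 3), with log2 fold changes of -0.01 (SE 0.07, adjusted p = 0.964) and 0.02 (SE 0.07, adjusted p = 0.928).

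Rspo1, which potentiates Wnt signals through LGR receptors, fell in both regions. It had 3.92, 4.92 and 5.01 CPM in Nf1 KO bridge, against 9.32, 10.5 and 11.8 CPM in CTL bridge. Every Nf1 KO bridge library lay well below every CTL bridge library, and the log2 fold change was -1.19 (SE 0.15, adjusted p = 0.000946). Rspo1 also had 9.35, 9.42 and 11.1 CPM in Nf1 KO distal stump, against 12.4, 16.7 and 14.8 CPM in CTL distal stump, without overlap, and a log2 fold change of -0.56 (SE 0.14, adjusted p = 0.0368). The distal stump call was lost without any 1 of Nf1 KO bridge 2, CTL bridge 2, the 3 Nf1 KO distal stump libraries or CTL distal stump 2 or 3 (adjusted p up to 0.117), and without CTL bridge 1 and 3 (adjusted p = 0.0533). Rspo3 was not called for genotype in either region, and Rspo2 and Rspo4 were too low to test.

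Among the 10 secreted antagonist genes chosen by symbol, all those called for genotype were lower in Nf1 KO, 3 in each region. Outside these, the genes of the secreted proteins Igfbp4 (higher) and Frzb and Sostdc1 (lower) were called too and are given below. Per length of exon, Sfrp5 and Sfrp4 were the most abundant Wnt genes in all 4 groups. Sfrp5 stood at 55.9 ± 5.35 CPM per kb in Nf1 KO bridge against 93.8 ± 14.2 in CTL bridge, and 114 ± 19.2 in Nf1 KO distal stump against 163 ± 24.2 in CTL distal stump (SD, n = 3). Sfrp4 stood at 58.7 ± 14.8 CPM per kb in Nf1 KO bridge, 81.2 ± 6.92 in CTL bridge, 32.7 ± 3.26 in Nf1 KO distal stump and 50.9 ± 5.05 in CTL distal stump. In Nf1 KO bridge the 2 genes differed by less than either SD. In CTL bridge they differed by less than the SD of Sfrp5 but by more than that of Sfrp4. Summed per kb, all 10 antagonist genes came to 152 to 173 CPM per kb in Nf1 KO bridge, against 226 to 268 in CTL bridge, and 181 to 215 in Nf1 KO distal stump, against 260 to 307 in CTL distal stump. These sums rest mostly on Sfrp5 and Sfrp4. Of the 9 antagonist genes tested, 1 had a positive log2 fold change in the bridge and 4 in the distal stump.

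SFRP proteins bind Wnt ligands outside the cell. Sfrp5 had 106, 117 and 96.3 CPM in Nf1 KO bridge, against 155, 171 and 208 CPM in CTL bridge, every Nf1 KO library below the CTL range, with a log2 fold change of -0.75 (SE 0.15, adjusted p = 0.0105). Without CTL bridge 1 and 3 the value was -0.69 (adjusted p = 0.108). Distal stump values were 179, 222 and 251 CPM in Nf1 KO distal stump, against 291, 362 and 276 CPM in CTL distal stump, and the log2 fold change was -0.51 (SE 0.15, adjusted p = 0.0702). DESeq2 gave -0.52 there (adjusted p = 0.00732), past the threshold.

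Sfrp2 had 23.6, 19.5 and 13.1 CPM in Nf1 KO distal stump, against 50.7, 55.0 and 41.2 CPM in CTL distal stump. The Nf1 KO distal stump libraries all lay below the CTL ones, with a log2 fold change of -1.39 (SE 0.27, adjusted p = 0.0127). In the bridge the values were 42.8, 24.2 and 30.3 CPM in Nf1 KO bridge, against 71.4, 45.1 and 76.9 CPM in CTL bridge, and the log2 fold change was -0.99 (SE 0.27, adjusted p = 0.0325). The bridge groups were separated by a narrow gap, between Nf1 KO bridge 1 and CTL bridge 2. The call was lost without Nf1 KO bridge 2 or 3 or CTL bridge 1 or 3 (adjusted p up to 0.112), and without CTL bridge 1 and 3 together the value was -0.48 (adjusted p = 0.524).

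Sfrp4 had 152, 127 and 131 CPM in Nf1 KO distal stump, against 191, 214 and 233 CPM in CTL distal stump, lower in every Nf1 KO library, with a log2 fold change of -0.64 (SE 0.17, adjusted p = 0.0425). That call was lost without any 1 of Nf1 KO bridge 2, the CTL bridge libraries or the 6 distal stump libraries (adjusted p up to 0.136), and without CTL bridge 1 and 3 (adjusted p = 0.0776). The bridge values were 176, 265 and 295 CPM in Nf1 KO bridge, against 313, 371 and 334 CPM in CTL bridge, a log2 fold change of -0.47 (SE 0.17, adjusted p = 0.0887). DESeq2 gave -0.47 there (adjusted p = 0.0222), past the threshold.

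Dkk2, which binds LRP co-receptors, had 8.61, 12.8 and 16.1 CPM in Nf1 KO bridge, against 19.5, 19.3 and 20.3 CPM in CTL bridge. The bridge groups did not overlap, and the log2 fold change was -0.65 (SE 0.18, adjusted p = 0.0368). It also had 7.07, 6.59 and 5.54 CPM in Nf1 KO distal stump, against 10.4, 11.1 and 11.9 CPM in CTL distal stump, also without overlap, a log2 fold change of -0.80 (SE 0.19, adjusted p = 0.0267). The bridge call was lost without any 1 of Nf1 KO bridge 1 or 2, the CTL bridge libraries, Nf1 KO distal stump 2 or CTL distal stump 1 or 2 (adjusted p up to 0.09), and the distal stump call without Nf1 KO distal stump 2 or 3 or any 1 CTL distal stump library (adjusted p up to 0.0993). Both were lost without CTL bridge 1 and 3 (adjusted p = 0.269 and 0.0597). Sfrp1, Dkk1, Dkk3, Dkk4 and Wif1 were not called for genotype.

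The paralogs Nkd1 and Nkd2, whose products bind Dishevelled and dampen Wnt signals, changed in opposite directions in both regions. Nkd2 had 27.4, 27.5 and 27.3 CPM in Nf1 KO bridge, against 14.0, 14.1 and 15.1 CPM in CTL bridge. The Nf1 KO bridge libraries were close to one another and far above the CTL range, with a log2 fold change of 0.92 (SE 0.06, adjusted p = 6.09e-05). Nkd2 also had 33.7, 32.3 and 33.6 CPM in Nf1 KO distal stump, against 17.8, 19.0 and 21.1 CPM in CTL distal stump, and the log2 fold change was 0.78 (SE 0.06, adjusted p = 0.000119).

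Nkd1 had 12.1, 13.8 and 11.7 CPM in Nf1 KO bridge, against 20.4, 19.0 and 17.5 CPM in CTL bridge, every Nf1 KO library below every CTL library, with a log2 fold change of -0.60 (SE 0.10, adjusted p = 0.00414). It likewise had 13.8, 15.2 and 17.0 CPM in Nf1 KO distal stump, against 24.1, 23.6 and 20.9 CPM in CTL distal stump, a log2 fold change of -0.57 (SE 0.10, adjusted p = 0.00705). Without CTL bridge 1 and 3 the adjusted p in the bridge was 0.0594, at the same size (-0.60). Per kb of exon, the level of Nkd2 divided by that of Nkd1 was 2.08 ± 0.177 in Nf1 KO bridge and 0.723 ± 0.0865 in CTL bridge, and 2.06 ± 0.223 in Nf1 KO distal stump and 0.803 ± 0.133 in CTL distal stump (SD, n = 3). By this measure Nkd2 was the higher of the pair in all 6 Nf1 KO libraries and Nkd1 in all 6 CTL libraries. The pair was close in CTL distal stump 3, with a ratio of 0.953. Before division by length, Nkd2 was slightly the higher in that library (21.1 CPM against 20.9 CPM).

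**Figure D4:**
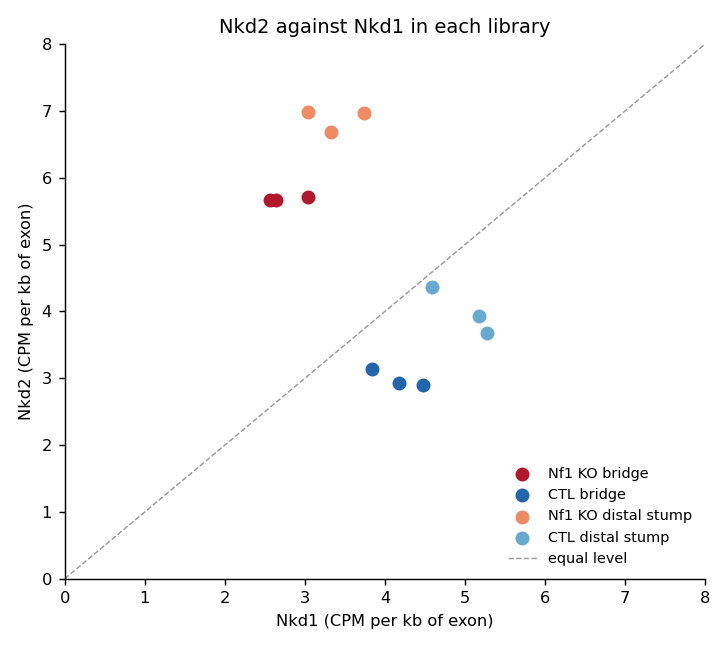
Nkd2 (vertical) against Nkd1 (horizontal), both in CPM per kb of exon, with 1 point per library; the dashed line marks equal levels. All Nf1 KO libraries lie above the line and all CTL libraries below it, in both regions.

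Axin2, a scaffold of the β-catenin destruction complex and the most widely used readout of canonical signalling, had 5.64, 6.74 and 6.48 CPM in Nf1 KO bridge, against 9.21, 10.7 and 9.86 CPM in CTL bridge. It was lower in all Nf1 KO bridge libraries, with a log2 fold change of -0.66 (SE 0.16, adjusted p = 0.0186), a call lost without Nf1 KO bridge 1 or CTL bridge 2 (adjusted p up to 0.0723) and without CTL bridge 1 and 3 (-0.77, adjusted p = 0.107). Distal stump values were 8.14, 8.76 and 10.7 CPM in Nf1 KO distal stump, against 9.67, 14.4 and 11.2 CPM in CTL distal stump, which overlapped, and a log2 fold change of -0.36 (SE 0.15, adjusted p = 0.2).

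The transcription factor genes Lef1 and Tcf7, which are also readouts of the pathway in many tissues, were not called for genotype. Tcf7 had 3.85, 5.40 and 3.88 CPM in Nf1 KO bridge, against 3.74, 1.90 and 2.16 CPM in CTL bridge. The groups did not overlap, and the log2 fold change was 0.76 (SE 0.24, adjusted p = 0.0616). DESeq2 called it (0.78, adjusted p = 0.0232), and so did edgeR without CTL bridge 1 and 3 (1.21, adjusted p = 0.0445). Tcf7 had 4.41, 4.45 and 3.71 CPM in Nf1 KO distal stump, against 4.09, 4.21 and 3.75 CPM in CTL distal stump, a log2 fold change of 0.06 (SE 0.24, adjusted p = 0.919). Lef1 had 1.85, 1.76 and 1.73 CPM in Nf1 KO distal stump, against 2.32, 2.36 and 2.42 CPM in CTL distal stump, lower in every Nf1 KO distal stump library, a log2 fold change of -0.41 (SE 0.17, adjusted p = 0.184). Its bridge values were 2.09, 1.57 and 1.46 CPM in Nf1 KO bridge, against 1.64, 1.44 and 1.53 CPM in CTL bridge, with a log2 fold change of 0.15 (SE 0.17, adjusted p = 0.642). The ligase gene Znrf3 had log2 fold changes of -0.12 (SE 0.17, adjusted p = 0.708) in the bridge and -0.27 (SE 0.17, adjusted p = 0.375) in the distal stump. Rnf43 averaged 0.507 ± 0.356 CPM in Nf1 KO bridge and 0.725 ± 0.573 CPM in CTL bridge, and 0.762 ± 0.162 CPM in Nf1 KO distal stump and 0.760 ± 0.289 CPM in CTL distal stump (SD, n = 3), and was not called. Of the 8 feedback and readout genes, Axin2, Nkd1 and Nkd2 were thus called in the bridge, Nkd1 and Nkd2 in the distal stump, and Notum was too low to test.

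Between bridge and distal stump, 10 Wnt genes differed in both genotypes. Of these, 7 were also called for genotype, and Wnt5a, Sfrp1 and Wif1 were not. In Nf1 KO mice, 17 of 42 genes (40.5%) were called between bridge and distal stump, 9 higher and 8 lower in the bridge, against 15.2% of all genes, 7.78% higher and 7.41% lower. In CTL mice 13 (31%) were called, 7 higher and 6 lower, against 9.85% of all genes, 5.15% higher and 4.71% lower. The libraries of the 2 regions did not overlap for 22 genes in Nf1 KO, against 34% of all genes, and for 26 in CTL, against 29.6%. Both genotypes gave a call for 10 genes, in the same direction: Wnt5a, Sfrp1, Sfrp4, Dkk2 and Fzd4 were higher in the bridge, and Wnt2b, Wnt10b, Wif1, Sfrp5 and Nkd2 were lower. Calls in Nf1 KO alone were made for Axin2, Fzd1, Fzd6, Rspo1, Rspo3, Wnt16 and Wnt9a, and in CTL alone for Dkk3, Fzd7 and Lef1. Leaving out single libraries lost the Nf1 KO calls of Axin2 (9 of 12, edgeR adjusted p up to 0.148) and Nkd2 (1 of 12, 0.0524). In CTL it lost those of Fzd7 and Wnt10b (5 of 12 each), Dkk2 (4) and Fzd4 (3), with edgeR adjusted p up to 0.112. DESeq2 called Rspo1 in CTL too (-0.47, adjusted p = 0.0273, against 0.0615 in edgeR). It also called Sfrp2 in Nf1 KO (0.79, adjusted p = 0.0162, against 0.0785 in edgeR). These 2 region comparisons share no samples with each other, but each shares its libraries with the genotype comparisons.

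**Figure D5:**
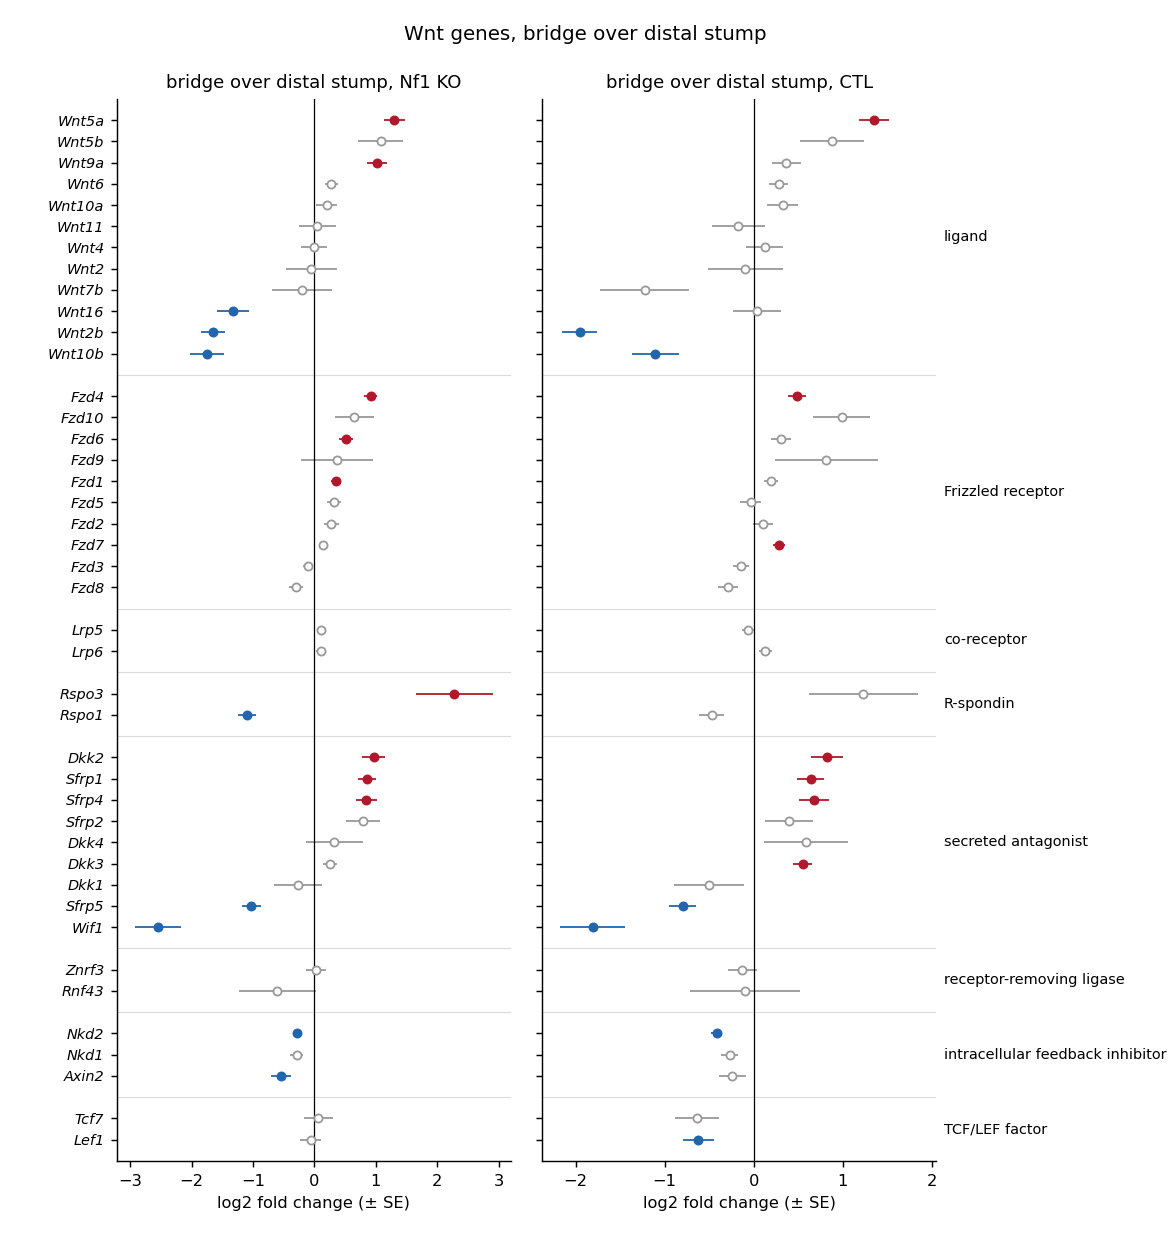
Log2 fold change (± SE) of the 42 tested Wnt genes, bridge over distal stump, in Nf1 KO (left) and CTL (right), grouped by role; filled points passed the adjusted p of 0.05. Wnt5a is to the right and Wnt2b and Wif1 far to the left in both panels, and Wnt16 is to the left in Nf1 KO only.

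Wnt5a, the main ligand of β-catenin-independent signalling, averaged 16.4 ± 1.15 CPM in Nf1 KO bridge against 6.65 ± 1.41 CPM in Nf1 KO distal stump, and 19.0 ± 0.597 CPM in CTL bridge against 7.46 ± 1.61 CPM in CTL distal stump (SD, n = 3). Its log2 fold change was 1.30 (SE 0.17, adjusted p = 0.00124) in Nf1 KO and 1.35 (SE 0.17, adjusted p = 0.00258) in CTL. Wnt2b went the other way, with -1.65 (SE 0.20, adjusted p = 0.000772) in Nf1 KO and -1.96 (SE 0.20, adjusted p = 0.000845) in CTL. Wif1, a secreted protein that sequesters Wnt ligands, averaged 8.80 ± 2.16 CPM in Nf1 KO bridge against 51.6 ± 9.83 CPM in Nf1 KO distal stump, and 11.2 ± 7.61 CPM in CTL bridge against 40.1 ± 1.68 CPM in CTL distal stump. That was a log2 fold change of -2.55 (SE 0.38, adjusted p = 0.00193) in Nf1 KO and -1.81 (SE 0.37, adjusted p = 0.0142) in CTL, the CTL call lost without CTL bridge 1 (adjusted p = 0.0578).

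Sfrp1 averaged 56.9 ± 6.88 CPM in Nf1 KO bridge against 31.6 ± 3.80 CPM in Nf1 KO distal stump, and 43.9 ± 9.44 CPM in CTL bridge against 28.2 ± 1.38 CPM in CTL distal stump (SD, n = 3). The log2 fold change was 0.85 (SE 0.15, adjusted p = 0.00443) in Nf1 KO and 0.64 (SE 0.15, adjusted p = 0.0242) in CTL, the CTL call lost without CTL bridge 1 or 3 or CTL distal stump 1 or 2 (adjusted p up to 0.0926). Its relatives split by region: Sfrp4 was also higher in the bridge (0.84 in Nf1 KO, adjusted p = 0.00827, and 0.68 in CTL, adjusted p = 0.0303), and Sfrp5 was lower (-1.03 in Nf1 KO, adjusted p = 0.00209, and -0.80 in CTL, adjusted p = 0.0119). In CTL the Sfrp4 call was lost without any 1 of the CTL bridge libraries or CTL distal stump 1 or 2 (adjusted p up to 0.118), and the Sfrp5 call without CTL bridge 1 (adjusted p = 0.0548).

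Dkk3, a DKK relative whose place in Wnt signalling is unsettled, averaged 50.8 ± 3.87 CPM in Nf1 KO bridge against 42.6 ± 4.28 CPM in Nf1 KO distal stump, and 60.0 ± 7.84 CPM in CTL bridge against 41.0 ± 2.98 CPM in CTL distal stump (SD, n = 3). The log2 fold change was 0.25 (SE 0.11, adjusted p = 0.145) in Nf1 KO and 0.55 (SE 0.11, adjusted p = 0.0125) in CTL, the CTL call lost without CTL distal stump 1 (adjusted p = 0.0575). Fzd6, a planar polarity receptor, averaged 9.78 ± 0.811 CPM in Nf1 KO bridge and 6.86 ± 0.463 CPM in Nf1 KO distal stump, with a log2 fold change of 0.51 (SE 0.12, adjusted p = 0.0152), a call lost without Nf1 KO bridge 3 or Nf1 KO distal stump 2 or 3 (adjusted p up to 0.0607). Rspo3 averaged 2.60 ± 1.11 CPM in Nf1 KO bridge and 0.534 ± 0.518 CPM in Nf1 KO distal stump, with 2.27 (SE 0.63, adjusted p = 0.035). The value reached 3.35 on leaving out a single library. The call was lost without any 1 Nf1 KO bridge library or Nf1 KO distal stump 2 or 3 (adjusted p up to 0.118). Lef1 was lower in CTL bridge, at 1.54 ± 0.0984 CPM, than in CTL distal stump, at 2.37 ± 0.0485 CPM, with -0.62 (SE 0.17, adjusted p = 0.0482), a call lost without any 1 library except Nf1 KO bridge 1 (adjusted p up to 0.135). Skeletal muscle markers summed to 1053 to 8046 CPM in CTL bridge against 19.6 to 277 CPM in CTL distal stump. Their part in the region calls was not tested, since leaving out CTL bridge 1 and 3 leaves 1 CTL bridge library.

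Whether the genotype effect differed between regions was tested by the interaction. In edgeR 0 of the 42 genes and 0% of all 19189 genes were called. At an unadjusted p under 0.05 there were 5 of the 42 (Fzd4, Lef1, Rspo1, Wnt16 and Wnt9a) and 2534 of all genes. DESeq2 called 447 genes, and of the Wnt genes Wnt16 alone, at -1.36 (SE 0.40, adjusted p = 0.0312), which means a smaller rise in the bridge than in the distal stump. edgeR gave Wnt16 -1.36 (SE 0.37, adjusted p = 0.195). The genes called in 1 region only are therefore not shown to differ between regions.

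Among 24 other genes of Wnt secretion and the cell surface, of which 23 were tested, 8 were higher and 4 lower in Nf1 KO bridge, and 5 were higher and 4 lower in Nf1 KO distal stump. That is 52.2% and 39.1% of those tested, against 14.6% and 8.14% of all genes, with list medians of -0.01 and 0.00. This list and those below were drawn up with earlier results of these data known, so their shares are descriptions only. Igfbp4, which binds insulin-like growth factors and can block Wnt receptors, averaged 902 ± 63.6 CPM in Nf1 KO bridge against 505 ± 31.0 CPM in CTL bridge (log2 fold change 0.84, adjusted p = 0.000405). In the distal stump its log2 fold change was 0.37 (adjusted p = 0.0258), a call lost without Nf1 KO distal stump 3 or CTL distal stump 1 or 2 (adjusted p up to 0.0922). Frzb, a further SFRP, averaged 18.7 ± 3.22 CPM in Nf1 KO bridge against 40.4 ± 3.49 CPM in CTL bridge, and 29.3 ± 3.39 CPM in Nf1 KO distal stump against 69.8 ± 7.01 CPM in CTL distal stump (SD, n = 3). Its log2 fold changes were -1.12 (adjusted p = 0.000885) and -1.25 (adjusted p = 0.000538). Lower in both regions, too, were Sostdc1 (-0.69 and -0.85), which binds LRP co-receptors and BMPs, and the membrane inhibitor Apcdd1 (-0.64 and -0.49), with adjusted p from 0.0028 to 0.0119. The bridge call of Sostdc1 was lost without CTL bridge 1 and 3 (-0.55, adjusted p = 0.134). The Wnt co-receptor Ptk7 rose by 0.82 in the bridge and 0.77 in the distal stump (adjusted p = 0.0012 and 0.00238).

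Of the genes for R-spondin receptors, Lgr6 rose and Lgr5 fell in both regions, and Lgr4 was not called in either. Lgr6 averaged 7.84 ± 0.289 CPM in Nf1 KO bridge against 3.53 ± 0.357 CPM in CTL bridge, and 12.1 ± 1.75 CPM in Nf1 KO distal stump against 6.00 ± 0.960 CPM in CTL distal stump (SD, n = 3), rises of 1.15 (adjusted p = 0.00116) and 1.01 (adjusted p = 0.00272). Lgr5 averaged 2.66 ± 0.125 CPM in Nf1 KO bridge against 4.60 ± 1.08 CPM in CTL bridge, and 1.98 ± 0.0979 CPM in Nf1 KO distal stump against 4.08 ± 0.213 CPM in CTL distal stump, with log2 fold changes of -0.79 (adjusted p = 0.0125) and -1.04 (adjusted p = 0.00547). Lgr4 averaged 52.8 ± 2.81 CPM in Nf1 KO bridge against 45.6 ± 3.23 CPM in CTL bridge, and 36.0 ± 1.62 CPM in Nf1 KO distal stump against 35.4 ± 2.99 CPM in CTL distal stump, with log2 fold changes of 0.21 (adjusted p = 0.0969) and 0.03 (adjusted p = 0.894). Ror2, a receptor of Wnt5a, had 0.52 in the bridge (adjusted p = 0.0237, lost without Nf1 KO bridge 1 or 2 or CTL bridge 1 or 2, adjusted p up to 0.0851) and 0.71 in the distal stump (adjusted p = 0.00994). Wls, which carries Wnt ligands to the surface, rose by 0.35 in the bridge (adjusted p = 0.00403). The bridge calls of Ror2 (adjusted p = 0.125) and Wls (adjusted p = 0.0923) were lost without CTL bridge 1 and 3. Lgr4, Lgr5, Ror2 and Wls were chosen after their values were seen.

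Downstream of the receptors, 8.7% of the cytoplasmic and 12.5% of the nuclear list was called in each region. Of the planar polarity list 6.25% was called in the bridge and 18.8% in the distal stump. The shares over all genes were 14.6% and 8.14%. Of 23 cytoplasmic genes, 1 was higher and 1 lower in Nf1 KO bridge (Tnks 0.24 and Dvl1 -0.28) and 2 were higher in Nf1 KO distal stump (Axin1 0.29 and Cby1 0.24). Of 16 nuclear genes, Pygo2, a partner of β-catenin, rose in both regions (0.33 and 0.29, adjusted p = 0.00317 and 0.00866), Hdac1 rose in the bridge (0.30) and Sox17 fell in the distal stump (-0.63). Of 16 planar polarity genes, Celsr2 fell in the bridge (-0.41), and in the distal stump Daam2, a formin that binds Dishevelled, rose (0.77, adjusted p = 0.00136) while Celsr1 (-0.70) and Prickle1 (-0.40) fell. Among these, the calls of Axin1, Cby1, Dvl1, Tnks, Hdac1, Sox17, Celsr1, Celsr2 and Prickle1 were each lost on leaving out single libraries (between 2 of the 12 for Prickle1 and 9 of the 12 for Axin1, Celsr2 and Dvl1), with adjusted p up to 0.15. The bridge call of Pygo2 was lost without CTL bridge 1 and 3 (adjusted p = 0.0577).

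Of 28 other genes that Wnt signals switch on in some tissues, 23 were tested, and 6 were higher and 1 lower in Nf1 KO bridge and 4 higher and 1 lower in Nf1 KO distal stump. That is 30.4% and 21.7% of those tested, against 14.6% and 8.14% of all genes. List medians were 0.16 and 0.13, against 0.00 over all genes. Vcan, which encodes the proteoglycan versican, rose by 1.19 and 0.91 (adjusted p = 0.00108 and 0.00563), and Cyr61 by 0.74 and 0.49 (adjusted p = 0.00216 and 0.022, the distal stump call lost without Nf1 KO distal stump 1 or 2 or CTL distal stump 1 or 2, adjusted p up to 0.0789). In the bridge Wisp1 rose by 0.56 (adjusted p = 0.00429) and Myc by 0.92 (adjusted p = 0.0136, and 0.0524 without CTL bridge 2), while Bmp4 fell by 0.97 on the log2 scale (adjusted p = 0.00628). The calls of Myc (adjusted p = 0.0773) and Bmp4 (adjusted p = 0.0739) were lost without CTL bridge 1 and 3. In the distal stump Bambi rose by 0.77 (adjusted p = 0.0111). Wisp1 was not called there and averaged lower in Nf1 KO, at 10.8 ± 0.203 CPM against 12.8 ± 0.554 CPM in CTL distal stump (SD, n = 3). Many of these genes also respond to other signals.

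Of the 52 genes, 10 did not pass the filter on low counts, and no fold change is given for them. They were Wnt1, Wnt3, Wnt3a, Wnt7a, Wnt8a, Wnt8b, Wnt9b, Rspo2, Rspo4 and Notum. The largest count of any library was 18 for Rspo4, 15 for Notum, 7 for Rspo2, 6 for Wnt8a and Wnt8b, 4 for Wnt1 and Wnt3, 2 for Wnt9b, and 1 for Wnt3a and Wnt7a. Exons of 10 of the 52 genes overlap a gene on the opposite strand, among them Sfrp2 (16.1% of its exon bases), Lef1 (13.8%), Rspo3 (13.1%), Wnt5a (4.58%) and Axin2 (3.8%). The library kit kept strand, but whether the counting used it is not given in the sources used here.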

How the data were processed

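Total RNA of pooled nerve fragments was depleted of ribosomal RNA and sequenced from a directional kit, per the labels' protocols. Per the submitters' processing notes, the tools included cutadapt 1.2.1 and CASAVA 1.8.2 as well as DESeq2, with mm10 as build. No aligner or counter is named in the sources used here. The values the authors deposited are read as estimated counts, since they are whole but not plain counts throughout. Of 957 values above 0 in genes of at most 120 bases, 0 were under 10, and the shortest Wnt gene has 1315 bases of exon.

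All 12 libraries entered 1 model in edgeR 4.0.16 (R 4.3.3), with a term for each group (TMM, filterByExpr by group, glmQLFit, glmQLFTest, Benjamini-Hochberg adjustment at 0.05 over 19189 genes). Standard errors (SE) were derived from the F statistic. TMM factors ran from 0.763 to 1.09. Totals of 18821445 to 38981819 set the counting error, and the floors cover that error only. The SE also reflects the spread among libraries. Groups come from the labels, which call the 3 samples of a group independent. Positions and exon lengths come from GENCODE M21 (GRCm38), which held all 52 gene IDs; RefSeq promoter windows matched 34 of the 52 genes. The code was run on simulated counts with known changes. That run checked the median size of the larger fitted changes and not the calls made here.

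The members and the gene lists were chosen with earlier results of these data known. Genes called for genotype are given in every library, those called between regions only by group means, and others by counts; of the pathway lists, all called genes are named up to 8 a list and otherwise the 6 with the smallest p. Alternatives were DESeq2 1.42.0, other size factors, no filter, a replicate block, a Y-linked covariate, only the groups compared, no CTL bridge 1 and 3, and each library left out. Deviations of same-numbered samples were weakly correlated (largest correlation 0.139, and not every pair over 0.1 in any comparison), and the main model has no replicate block. Between bridge and distal stump, these correlations were positive for every number: 0.139, 0.0340 and 0.0749 in Nf1 KO, and 0.0277, 0.00682 and 0.0298 in CTL. Unlike-numbered pairs lay between -0.103 and 0.0355 in Nf1 KO, and between -0.0447 and 0.0163 in CTL. Figures were drawn with matplotlib 3.10.9.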

Additional observations from a re-analysis of the deposited data

How the results depend on the processing

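No Wnt gene called in the report changed direction under any alternative, and other size factors (RLE) changed none of the 5 counts by more than 1.5 times. In all alternatives together, 4 of 15 bridge calls were kept (Fzd7, Lrp5, Nkd2 and Rspo1), 4 of 14 distal stump calls (Fzd3, Nkd1, Nkd2 and Wnt16), 12 of 17 region calls in Nf1 KO and 2 of 13 in CTL (Wnt2b and Wnt5a). For the 26 other pathway genes named, 29 of 58 calls for genotype or region were kept in all of them. Without CTL bridge 1 and 3, which leaves 1 CTL bridge library whose spread is taken from the other groups, the Wnt genes called numbered 5 in the bridge (4 of them among the 15, and Tcf7), 9 in the distal stump and 4 between regions in CTL, and all genes called 711 in the bridge and 506 between regions in CTL (212 higher and 294 lower, against 988 and 903 with all libraries). With only the groups compared, 9 Wnt genes were called in the distal stump and 7 between regions in CTL, and of all genes 889 and 869. A Y-linked covariate left 6 in the distal stump. For the interaction DESeq2 called 1 Wnt gene and 447 genes, and edgeR 0 of both. The cause of these shifts was not tested, beyond the fewer samples in some of them.

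Leaving out 1 library gave 11 to 15 Wnt genes in the bridge, 5 to 13 in the distal stump, 14 to 18 between regions in Nf1 KO, 5 to 13 between regions in CTL and 0 to 0 for the interaction. Over all genes it gave 1612 to 2947, 880 to 1561, 1594 to 2892 and 681 to 2062 in the same order. All 12 of these kept 7 of 15 bridge calls, 5 of 14 distal stump calls, 13 of 17 region calls in Nf1 KO and 3 of 13 in CTL. Distal stump counts of Wnt genes fell to 8, 5 and 7 without Nf1 KO distal stump 1, 2 and 3, and to 9, 5 and 6 without CTL distal stump 1, 2 and 3. Region counts in CTL fell to 5 and 8 without CTL bridge 1 and 2, and to 5 and 6 without CTL distal stump 1 and 2.

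The labels number the samples of each group alike, and whether same-numbered samples came from the same mice was not tested. The Y-linked sums stood in the same order in every group, highest in library 1 and lowest in library 2. For libraries 1, 2 and 3 they were 147, 41.2 and 123 CPM in Nf1 KO bridge, and 106, 39.8 and 71.1 CPM in Nf1 KO distal stump. In CTL they were 216, 102 and 195 CPM in the bridge, and 197, 116 and 120 CPM in the distal stump. With the replicate block 14 Wnt genes were called in the bridge, 11 in the distal stump, 18 between regions in Nf1 KO, 12 between regions in CTL and 0 for the interaction. Depth limits the 10 untested genes and those near 1 CPM, such as Wnt7b, Dkk1, Fzd9 and Rnf43, where the SE reached 0.63 and changes could not be resolved.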

Other observations

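The ligand genes form 4 neighbouring pairs in the annotation (GENCODE M21, GRCm38): Wnt6 and Wnt10a on chromosome 1, separated by 6193 bases, Wnt3a and Wnt9a on chromosome 11, separated by 16175 bases, Wnt9b and Wnt3 on chromosome 11, separated by 24328 bases, and Wnt10b and Wnt1 on chromosome 15, separated by 11706 bases. Wnt6 was lower in Nf1 KO in both regions (log2 fold change -0.49 in the bridge and -0.48 in the distal stump), while its neighbour Wnt10a had -0.13 (SE 0.17, edgeR adjusted p = 0.68) and -0.00 (SE 0.17, edgeR adjusted p = 0.995). Wnt9a and Wnt10b had neighbours too low to test. Whether the members of a pair differed was not tested.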
